A study of Mus musculus with 32 samples.

Results

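Cells that clear dead neighbours do so with a small set of receptors and soluble bridges, and 10 of those genes are described here of the 31053 genes counted in the series. They were chosen by symbol: Timd4, Mertk, Axl, Tyro3, Gas6, Pros1, Mfge8, Itgav, Itgb5 and Lrp1, and all 10 were found. A dying cell turns phosphatidylserine to its outer surface, and that lipid is the signal that is read. Timd4 encodes TIM-4, a receptor that binds the lipid directly and is known in mice from resident macrophages and dendritic cells. Mertk, Axl and Tyro3 encode the TAM receptor kinases, which see the lipid only through Gas6 and protein S (Pros1). Mfge8 encodes a secreted bridge between the lipid and integrins made of the alpha v chain (Itgav) and partners such as beta 5 (Itgb5). Lrp1 encodes a large endocytic receptor that also takes up dying cells.

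Transcripts were counted in single cells captured in droplets, with the 10x Genomics kit for 3′ ends, version v3. The cells were stromal vascular fraction cells, the non-adipocyte cells of fat, from epididymal adipose tissue of mice. Mice labelled CD169-DTR, whose diphtheria toxin receptor is driven from Siglec1, the gene of the macrophage lectin CD169, and WT mice of strain C57BL/6 ate a High Fat Diet (HFD) or a Normal Diet (ND) for 16 weeks. All 4 groups, WT included, were then given diphtheria toxin for 7 days; the stated aim was to remove tissue resident macrophages and to look at the other cells in lean and obese fat. CD45+ and CD45- cells were sorted apart, most F4/80hi cells and Ly6Chi monocytes were gated out, and the fractions were mixed 1:1. The groups are named HFD CD169-DTR, HFD WT, ND CD169-DTR and ND WT after their labels. Each group had 1 library, made of 8 sequencing records, so no difference was tested and all intervals are 95% intervals for counting error alone. How many mice went into each library is unstated, and the sort limits every statement on macrophages to the cells it left.

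After filtering, 19328 cells remained: 5627 in HFD CD169-DTR, 5120 in HFD WT, 3599 in ND CD169-DTR and 4982 in ND WT, with median unique molecule counts (UMIs) per cell of 9151, 7776, 6870 and 6159 in those libraries. Cell types were assigned from marker genes, none of them among the 10, and are called "like" the type. Siglec1 ran against the labels: macrophage-like cells held 12.6 CPM (UMIs of the gene scaled to a fixed total over those cells) in HFD CD169-DTR against 5.70 CPM in HFD WT, and 17.1 CPM in ND CD169-DTR against 0.831 CPM in ND WT. Every group name therefore means the library labelled so, and each direction between genotypes rests on those labels. Libraries also shared cell barcodes, between 30 and 157 per pair, most between ND CD169-DTR and ND WT. Of macrophage-like cells, 5.73% in HFD CD169-DTR, 7.57% in HFD WT, 19.8% in ND CD169-DTR and 39.1% in ND WT carried a shared barcode, and in ND CD169-DTR they held 53.7% of the macrophage UMIs. Of type 1 conventional dendritic (cDC1)-like cells, 0 of 165, 1 of 245, 0 of 103 and 3 of 308 cells carried such a barcode in the same libraries. Macrophage values include these barcodes unless stated, and only some are also given without them.

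The genes lie apart in build GRCm38. Timd4 spans chr11:46810800-46844332 on the plus strand, Mertk chr2:128698956-128802894 (plus), Axl chr7:25757273-25788705 (minus), Tyro3 chr2:119797733-119818104 (plus) and Gas6 chr8:13465374-13494490 (minus). Pros1 spans chr16:62854307-62929346 (plus), Mfge8 chr7:79133768-79149060 (minus), Itgav chr2:83724397-83806916 (plus), Itgb5 chr16:33829665-33949338 (plus) and Lrp1 chr10:127538161-127621148 (minus). Mertk, Gas6 and Lrp1 each overlap a counted gene on the other strand (Gm14011, Tmem255b and Gm16217), and the sources used here do not state whether counting used the strand. The promoters of Timd4 and Gas6 are shown because the results turn on Timd4 in cDC1-like cells and on Gas6 in macrophage-like cells. Each window runs from 250 bases before to 50 bases after the gene start in RefSeq (GRCm38.p6), chr11:46810549-46810848 on the plus strand for Timd4 and chr8:13494486-13494785 on the minus strand for Gas6. Capitals mark motif matches on either strand.
Timd4: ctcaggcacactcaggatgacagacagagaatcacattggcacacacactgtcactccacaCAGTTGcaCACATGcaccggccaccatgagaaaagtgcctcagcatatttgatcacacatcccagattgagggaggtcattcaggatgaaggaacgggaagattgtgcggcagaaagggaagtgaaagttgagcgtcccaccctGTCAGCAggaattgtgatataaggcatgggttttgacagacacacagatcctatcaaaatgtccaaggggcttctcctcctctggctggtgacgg
Gas6: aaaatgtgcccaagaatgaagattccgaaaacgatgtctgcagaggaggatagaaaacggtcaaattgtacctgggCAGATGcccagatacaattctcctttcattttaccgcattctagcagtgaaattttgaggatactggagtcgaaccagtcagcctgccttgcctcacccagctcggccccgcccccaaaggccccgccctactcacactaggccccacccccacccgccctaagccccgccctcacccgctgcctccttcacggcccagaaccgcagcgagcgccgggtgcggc
The search covered 7 motifs: E-box (CANNTG), AP-1 (TGANTCA), ISRE, PU.1 core (GAGGAAGT), AICE, MAF half-site (TGCTGAC) and C/EBP (TTGCNNAA). The Timd4 window held 2 E-boxes and 1 MAF half-site, read on the minus strand, and the Gas6 window held 1 E-box. Of 32851 promoter windows of the same length, 72.3% held an E-box and 4.67% a MAF half-site. The other shares were 7.81% for AP-1, 3.44% for ISRE, 3.20% for the PU.1 core, 4.56% for AICE and 10.8% for C/EBP. A match describes letters, not a bound site.

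The 10 genes were highest in different cell types. Timd4 was concentrated in cDC1-like cells, which take up dead cells and present their antigens. Mertk was found in macrophage-like, endothelial-like, fibroblast-like and mesothelial-like cells, with 3.67 CPM in mesothelial-like cells of HFD CD169-DTR, 19.1 CPM in HFD WT, 10.6 CPM in ND CD169-DTR and 16.7 CPM in ND WT. Axl and Lrp1 were highest, by CPM, in fibroblast and progenitor-like cells (315 to 484 CPM and 746 to 928 CPM over the 4 libraries), Gas6 in mesothelial-like cells, the lining cells of the fat pad, and Itgav in group 2 innate lymphoid (ILC2)-like cells (314 to 416 CPM). Mfge8 was highest in the few pericyte and smooth muscle-like cells, with 1457 CPM in ND WT (248 UMIs in 24 cells). The 5 such cells of HFD WT had 1495 CPM and the 5 of ND CD169-DTR had 1701 CPM. Tyro3 was scarce, with 406 UMIs in all cells of all libraries against 81256 for Lrp1. Across the 49 sums of a cell type in a library with at least 50 cells, the Pearson correlation of log2(CPM + 1) was 0.81 between Mertk and Gas6 and 0.80 between Axl and Lrp1. Timd4 correlated with no other member above 0.09. These sums share libraries, so the coefficients are descriptions.

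**Figure D1:**
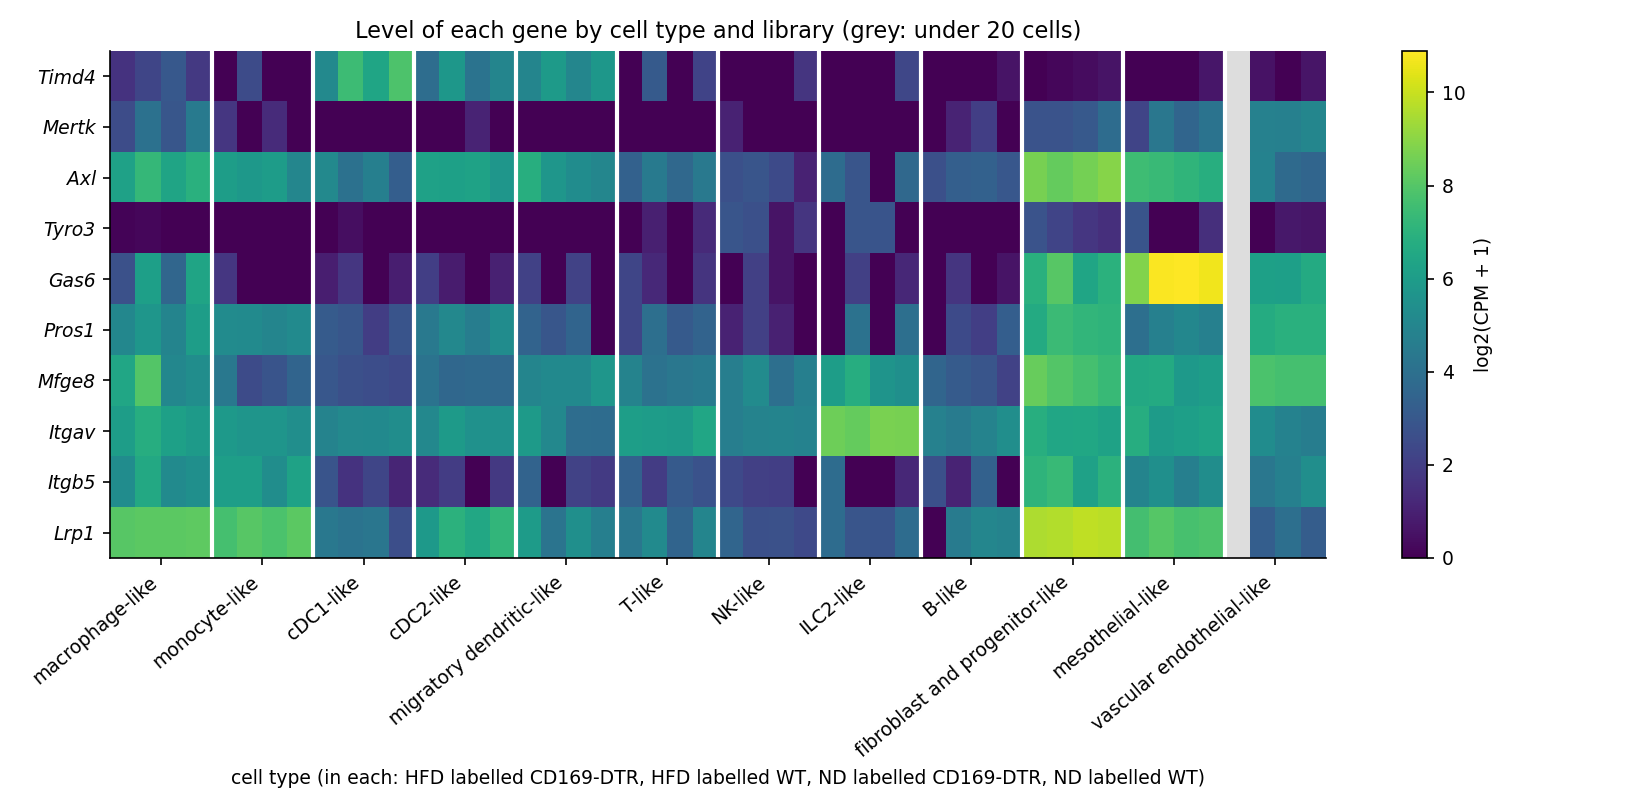
Level of each of the 10 genes (rows) by cell type and library (columns), as log2(CPM + 1). Grey marks fewer than 20 cells. Timd4 is brightest in cDC1-like cells, Gas6 in mesothelial-like cells, and Axl and Lrp1 in fibroblast and progenitor-like cells.

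Timd4 was largely a dendritic cell transcript in these libraries, and it was lower in the cDC1-like cells labelled CD169-DTR in both diets. Over all libraries, cDC1-like cells held 67.5% of its 2090 UMIs, type 2 conventional dendritic (cDC2)-like cells 13.3%, migratory dendritic-like cells 4.11%, macrophage-like cells 3.97% and untyped cells 8.33%. The cDC1-like share of a library's Timd4 UMIs was 47.1% in HFD CD169-DTR and 63.6% in HFD WT, and 58.1% in ND CD169-DTR and 73.7% in ND WT. The pooled shares rest mostly on the WT libraries. Macrophage-like cells held 22 of 85 Timd4 UMIs in HFD CD169-DTR and 28 of 835 in HFD WT. On ND they held 30 of 148 in ND CD169-DTR and 3 of 1022 in ND WT. These cells were gated on 6 other genes, the cDC1 markers Xcr1, Clec9a, Wdfy4, Tlr3, Naaa and Itgae, so high levels of these follow from the gate. All 6 were detected in each library. The median cell held 4 of the 6, 1 of the 10 macrophage markers and 2 of the 7 cDC2 markers. The cDC1 marker sum was 1867 CPM in HFD CD169-DTR, 1598 CPM in HFD WT, 2055 CPM in ND CD169-DTR and 1725 CPM in ND WT.

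In cDC1-like cells on HFD, Timd4 stood at 34.4 CPM (40 UMIs in 165 cells) in HFD CD169-DTR and at 176 CPM (531 UMIs in 245 cells) in HFD WT. The log2 ratio was -2.35 (-2.85 to -1.89), a 5.10-fold lower level in HFD CD169-DTR. On ND the levels were 83.7 CPM (86 UMIs in 103 cells) in ND CD169-DTR and 227 CPM (753 UMIs in 308 cells) in ND WT, a log2 ratio of -1.44 (-1.78 to -1.12), or 2.71-fold lower. The WT levels thus lay above the CD169-DTR levels in each diet with counting intervals that do not meet. Between diets, the HFD over ND ratio was -1.28 (-1.86 to -0.73) in the CD169-DTR libraries and -0.37 (-0.54 to -0.21) in the WT libraries, so HFD levels were the lower ones within each genotype. Whether the genotype ratio differs between diets was not tested.

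The lower sums went with smaller shares of positive cells and, unthinned, with fewer UMIs in those that were positive. With each cell thinned to 2000 UMIs, 6.13% of cDC1-like cells (2.98% to 11%) held a Timd4 UMI in HFD CD169-DTR and 24.4% (19.1% to 30.3%) in HFD WT. The thinned share was 16.0% (9.43% to 24.7%) in ND CD169-DTR and 29.5% (24.4% to 35.0%) in ND WT, and the intervals of the ND pair overlap slightly. Thinning left out 2, 3, 3 and 6 cells in the libraries HFD CD169-DTR, HFD WT, ND CD169-DTR and ND WT. Unthinned, the shares were 15.2% in HFD CD169-DTR, 51.0% in HFD WT, 29.1% in ND CD169-DTR and 53.6% in ND WT, at median depths of 6383, 11361, 9617 and 10374 UMIs. Fibroblast-like cells, which should lack the gene, held it in 0%, 0.168%, 0.180% and 0.450% of cells of those libraries unthinned, at median depths of 12906, 11190, 12261 and 9615 UMIs. The dendritic shares were therefore far above this background in every library. Positive cells averaged 1.6 UMIs in HFD CD169-DTR and 4.25 in HFD WT, and 2.87 in ND CD169-DTR and 4.56 in ND WT. Cells with 5 or more Timd4 UMIs numbered 0 of 165 in HFD CD169-DTR and 43 of 245 in HFD WT, and 4 of 103 in ND CD169-DTR and 70 of 308 in ND WT. These means and counts per cell were not adjusted for depth, which was lowest in HFD CD169-DTR.

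**Figure D2:**
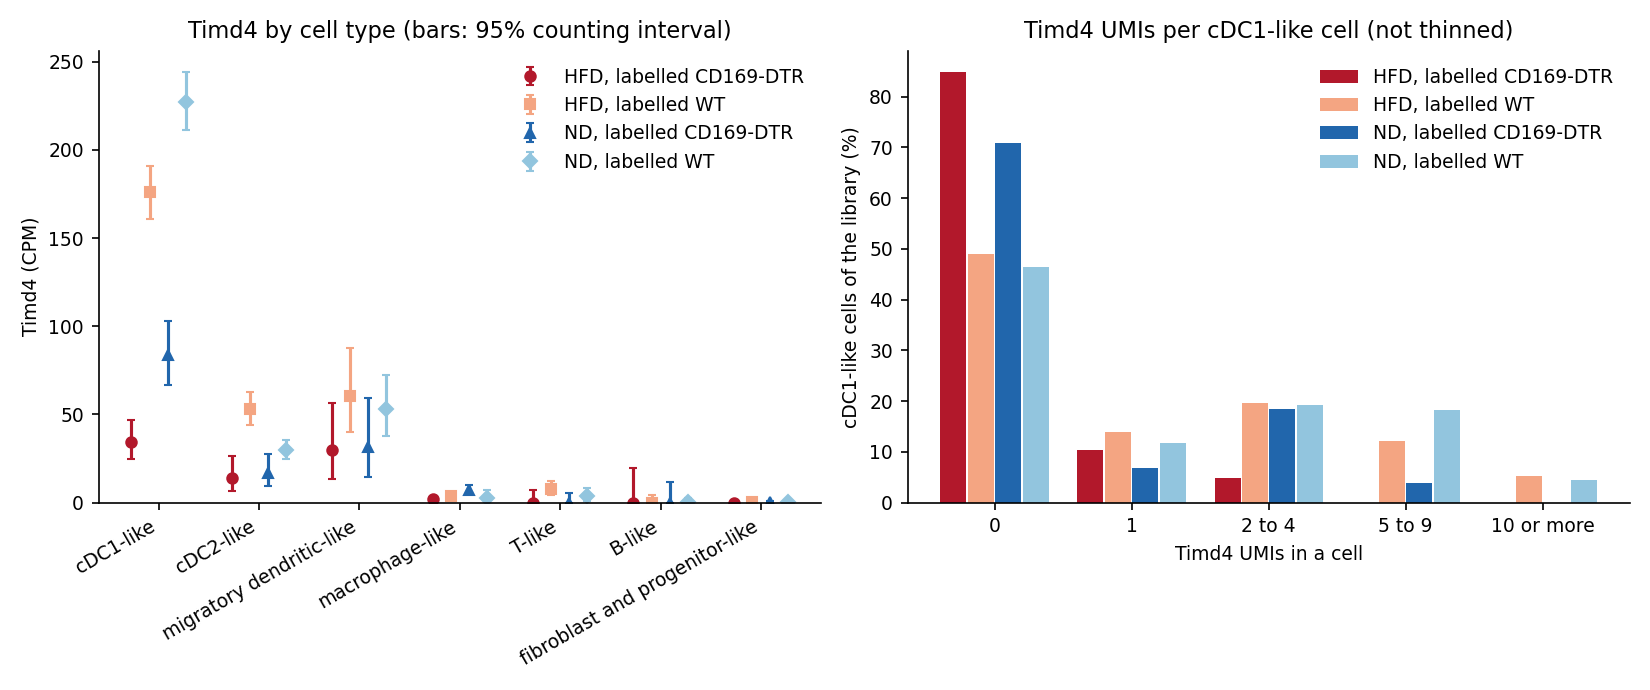
Left: Timd4 in CPM by cell type in the 4 libraries, with 95% counting intervals. Right: the percentage of cDC1-like cells by their number of Timd4 UMIs, unthinned. cDC1-like cells of HFD CD169-DTR sit at 34.4 CPM against 176 CPM in HFD WT, and those of ND CD169-DTR at 83.7 CPM against 227 CPM in ND WT.

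In cDC2-like cells the CPM of Timd4 was lower in the CD169-DTR libraries too, at lower levels and on few UMIs there. It had 13.9 CPM (9 UMIs in 4 of 109 cells) in HFD CD169-DTR and 52.8 CPM (133 UMIs) in HFD WT. The log2 ratio was -1.92 (-3.08 to -0.96). On ND the values were 16.6 CPM (15 UMIs in 8 of 97 cells) in ND CD169-DTR and 29.9 CPM (120 UMIs) in ND WT. The ND ratio was -0.85 (-1.73 to -0.07), and the intervals of the ND levels overlap. Thinned to 2000 UMIs, 2.88% of cDC2-like cells held a Timd4 UMI in HFD CD169-DTR and 4.98% in HFD WT. The thinned shares on ND were 1.05% in ND CD169-DTR and 4.43% in ND WT, and the intervals overlap in each diet. Between diets the order in WT was opposite to that in cDC1-like cells, with HFD WT above ND WT (log2 ratio 0.82, 0.46 to 1.19). In migratory dendritic-like cells the direction was not settled. Cells typed by markers had 29.8 CPM (13.6 to 56.5) in HFD CD169-DTR and 60.6 CPM (40.3 to 87.6) in HFD WT, and 31.3 CPM (14.3 to 59.4) in ND CD169-DTR and 53.2 CPM (38.0 to 72.4) in ND WT, with intervals that overlap in both diets. The cluster that was 93.6% migratory dendritic-like ran the other way, with 18.5 CPM (7 UMIs) in HFD CD169-DTR and 9.22 CPM (4 UMIs) in HFD WT, and 36.6 CPM (12 UMIs) in ND CD169-DTR and 24.7 CPM (18 UMIs) in ND WT. Across all immune cells, where the share of cDC1-like cells enters as well (6.54% of immune cells in HFD CD169-DTR and 9.29% in HFD WT, 5.67% in ND CD169-DTR and 12.3% in ND WT), the ratios were -3.17 (-3.51 to -2.84) on HFD and -2.40 (-2.67 to -2.15) on ND. Levels in macrophage-like cells were low: 22 UMIs (2.03 CPM) in HFD CD169-DTR and 28 (3.80 CPM) in HFD WT, and 30 (7.04 CPM) in ND CD169-DTR and 3 (2.49 CPM) in ND WT. The HFD ratio there was -0.90 (-1.78 to -0.04), but 0.85 without the cluster led by resident markers, and 15 of the 30 UMIs of ND CD169-DTR lay in shared barcodes.

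Monocyte-derived transcripts ran opposite to Timd4 between genotype labels in the cDC1-like gate. The 4 monocyte-derived markers (Ly6c2, Ccr2, Plac8 and Chil3) summed to 688 CPM in HFD CD169-DTR and 214 CPM in HFD WT, and to 699 CPM in ND CD169-DTR and 206 CPM in ND WT. The 8 resident macrophage markers summed to 9.46 CPM in HFD CD169-DTR, 19.2 CPM in HFD WT, 26.3 CPM in ND CD169-DTR and 2.11 CPM in ND WT. The part of other cells in the Timd4 values was not tested: leaving out cells with a UMI of a monocyte-derived marker left under 50 cells in a library of each pair and gave no value. In 8 planned and 2 added alternatives per diet, which left out cycling cells or shared barcodes among others, the HFD ratio of Timd4 stayed between -2.45 and -2.20 and the ND ratio between -1.62 and -1.33. By the clustering, which did not use the gate, 51.8% of the Timd4 UMIs in HFD CD169-DTR, 63.4% in HFD WT, 53.4% in ND CD169-DTR and 70.5% in ND WT lay in a single cluster led by Clec9a and Xcr1. By the same likeness measure over the 49 sums, the 5 genes nearest to Timd4 among 12748 were Clec9a (0.89), a dead-cell receptor of cDC1, the cytokine receptor Flt3 (0.84), Strip2 (0.82), the interleukin subunit gene Il12b (0.82) and Tspan33 (0.81). Clec9a and Flt3 are gate markers.

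Of the other members, Itgav was detected in the most cDC1-like cells in 3 of the 4 libraries, and Axl in HFD CD169-DTR (16.4%). Itgav had 28.4 CPM in HFD CD169-DTR and 33.7 CPM in HFD WT (log2 ratio -0.25, -0.86 to 0.33), and 35.0 CPM in ND CD169-DTR and 39.5 CPM in ND WT (-0.17, -0.75 to 0.37). An Itgav UMI was held by 15.8% of cells in HFD CD169-DTR, 30.2% in HFD WT, 26.2% in ND CD169-DTR and 30.5% in ND WT, unthinned. Mertk had 0 UMIs in all 4 libraries, which limits cells with a UMI, not cells that express the gene, to 1.82% in HFD CD169-DTR, 1.22% in HFD WT, 2.91% in ND CD169-DTR and 0.974% in ND WT. Axl had 34.4 CPM in HFD CD169-DTR and 15.5 CPM in HFD WT, a log2 ratio of 1.15 (0.50 to 1.79), and 25.3 CPM in ND CD169-DTR and 8.45 CPM in ND WT, a ratio of 1.58 (0.75 to 2.41). It ran opposite to Timd4. The HFD ratio of Axl was 0.43 (-0.30 to 1.14) when cells were typed by cluster, and the 8 fibroblast markers summed, in the same gate, to 368 CPM in HFD CD169-DTR and 135 CPM in HFD WT, and to 97.3 CPM in ND CD169-DTR and 47.4 CPM in ND WT. Their part in the Axl values was not tested. Of the 10 genes, 4 reached the minimum of 50 UMIs over both libraries on HFD, and 2 were past 2-fold (Timd4 lower, Axl higher), where 4.56% of 5918 genes were past 2-fold. On ND, 3 were measured and the same pair passed, where 4.72% of genes did. The cDC1-like comparisons were added after the members' levels were seen.

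In macrophage-like cells the TAM receptor gene Mertk and the ligand gene Gas6 were more than 2-fold lower in the CD169-DTR libraries on both diets. Mertk, the TAM receptor most tied to engulfment by macrophages, had 4.72 CPM in HFD CD169-DTR and 15.8 CPM in HFD WT, a log2 ratio of -1.74 (-2.24 to -1.25). On ND it had 6.57 CPM (28 UMIs) in ND CD169-DTR and 20.8 CPM (25 UMIs) in ND WT, a ratio of -1.66 (-2.49 to -0.82). By CPM, both WT libraries lay above both CD169-DTR libraries. Unthinned, 10.1% of cells held a Mertk UMI in ND CD169-DTR and 8.15% in ND WT, at median depths of 10070 and 4192 UMIs. Thinned to 2000 UMIs, the shares were 1.67% and 1.87%, with 8 and 77 cells left out. Thinned to 4000 UMIs, they were 1.32% (0.272% to 3.80%) and 10.6% (5.22% to 18.7%), with 19 and 90 left out. Without shared barcodes the Mertk levels were 4.83 CPM in HFD CD169-DTR and 17.7 CPM in HFD WT, and 6.58 CPM in ND CD169-DTR and 21.1 CPM in ND WT. The ND ratio depended on the gate: it was 0.05 when macrophage-like, monocyte-like and cDC2-like cells were pooled, and over all immune cells it was 0.98 (0.29 to 1.70). T-like cells held no Mertk UMI in any library.

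Gas6, the ligand that activates all TAM receptors, showed the largest ratio in macrophage-like cells of the members measured there. It had 5.46 CPM in HFD CD169-DTR and 69.9 CPM in HFD WT, 12.8-fold lower (log2 ratio -3.68, -4.09 to -3.29), and 11 CPM in ND CD169-DTR and 80.6 CPM in ND WT, 7.31-fold lower (-2.87, -3.40 to -2.35). Without shared barcodes the ratios were -3.95 on HFD and -3.19 on ND. T-like cells had 0 to 3.80 CPM of Gas6. The highest value was that of HFD CD169-DTR (2 UMIs, interval 0.460 to 13.7 CPM), and its interval holds the macrophage-like 5.46 CPM. The size of the HFD ratio thus rests on a level near this background. The macrophage-like cells present differed between the libraries. A cluster led by Cd209f, Cbr2 and Ccl8 held 3 cells in HFD CD169-DTR and 123 in HFD WT, and 7 in ND CD169-DTR and 18 in ND WT, and its WT cells carried 330 CPM of Gas6 on HFD and 473 CPM on ND. Without that cluster the Gas6 ratio was -1.95 (-2.44 to -1.48) on HFD and -1.33 (-2.14 to -0.49) on ND, and the Mertk ratio was -1.34 (-1.92 to -0.78) on HFD and -1.33 (-2.26 to -0.36) on ND. Within the cluster led by Mmp12 and Trem2, genes of lipid-associated macrophages, Gas6 had 6.11 CPM in HFD CD169-DTR and 29.3 CPM in HFD WT, a log2 ratio of -2.26. Across all macrophage-like cells, the 8 resident markers summed to 605 CPM in HFD CD169-DTR and 1719 CPM in HFD WT, and to 1112 CPM in ND CD169-DTR and 1452 CPM in ND WT.

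Mertk was detected more often in macrophage-like cells with a Gas6 UMI than in those without in both WT libraries and in HFD CD169-DTR. In HFD WT, 38 of 137 macrophage-like cells with a Gas6 UMI also held a Mertk UMI (27.7%, 20.4% to 36.0%), against 41 of 378 cells without one (10.8%, 7.90% to 14.4%). In HFD CD169-DTR the counts were 9 of 39 cells (23.1%) and 28 of 711 cells (3.94%). In ND WT they were 10 of 22 cells (45.5%, 24.4% to 67.8%) and 5 of 162 cells (3.09%). In ND CD169-DTR they were 4 of 24 cells (16.7%, 4.74% to 37.4%) and 21 of 223 cells (9.42%, 5.92% to 14%), with intervals that overlap. Deeper cells hold more UMIs of any gene, and these shares are not thinned. With cells thinned to 2000 UMIs, the HFD WT counts were 6 of 66 cells (9.09%, 3.41% to 18.7%) and 8 of 421 cells (1.90%, 0.824% to 3.71%), with intervals that overlap, and 0 of 7 cells with a Gas6 UMI held Mertk in HFD CD169-DTR, 0 of 3 in ND CD169-DTR and 0 of 11 in ND WT. Thinned to 4000 UMIs, ND WT had 6 of 16 cells (37.5%, 15.2% to 64.6%) against 4 of 78 without Gas6 (5.13%, 1.41% to 12.6%). HFD WT had 11 of 83 (13.3%, 6.81% to 22.5%) against 21 of 386 (5.44%, 3.40% to 8.20%). HFD CD169-DTR had 2 of 16 (12.5%, 1.55% to 38.3%) against 12 of 633 (1.90%, 0.983% to 3.29%). The intervals overlap in both HFD libraries. ND CD169-DTR had 0 of 4 against 3 of 224.

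Axl, the TAM receptor known from inflamed and interferon-exposed cells, had 75.1 CPM in HFD CD169-DTR and 151 CPM in HFD WT, a ratio of -1.01 (-1.14 to -0.88). On ND it had 80.5 CPM in ND CD169-DTR and 121 CPM in ND WT, a ratio of -0.59 (-0.87 to -0.30) that vanished without shared barcodes (-0.01, -0.31 to 0.29). Pros1, which encodes the other TAM ligand, protein S, had 32.1 CPM in HFD CD169-DTR and 51.5 CPM in HFD WT (-0.68, -0.90 to -0.47), and 29.1 CPM in ND CD169-DTR and 66.5 CPM in ND WT (-1.19, -1.61 to -0.77). Tyro3 had 0.0925 CPM in HFD CD169-DTR, 0.136 CPM in HFD WT and no UMI in either ND library.

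**Figure D3:**
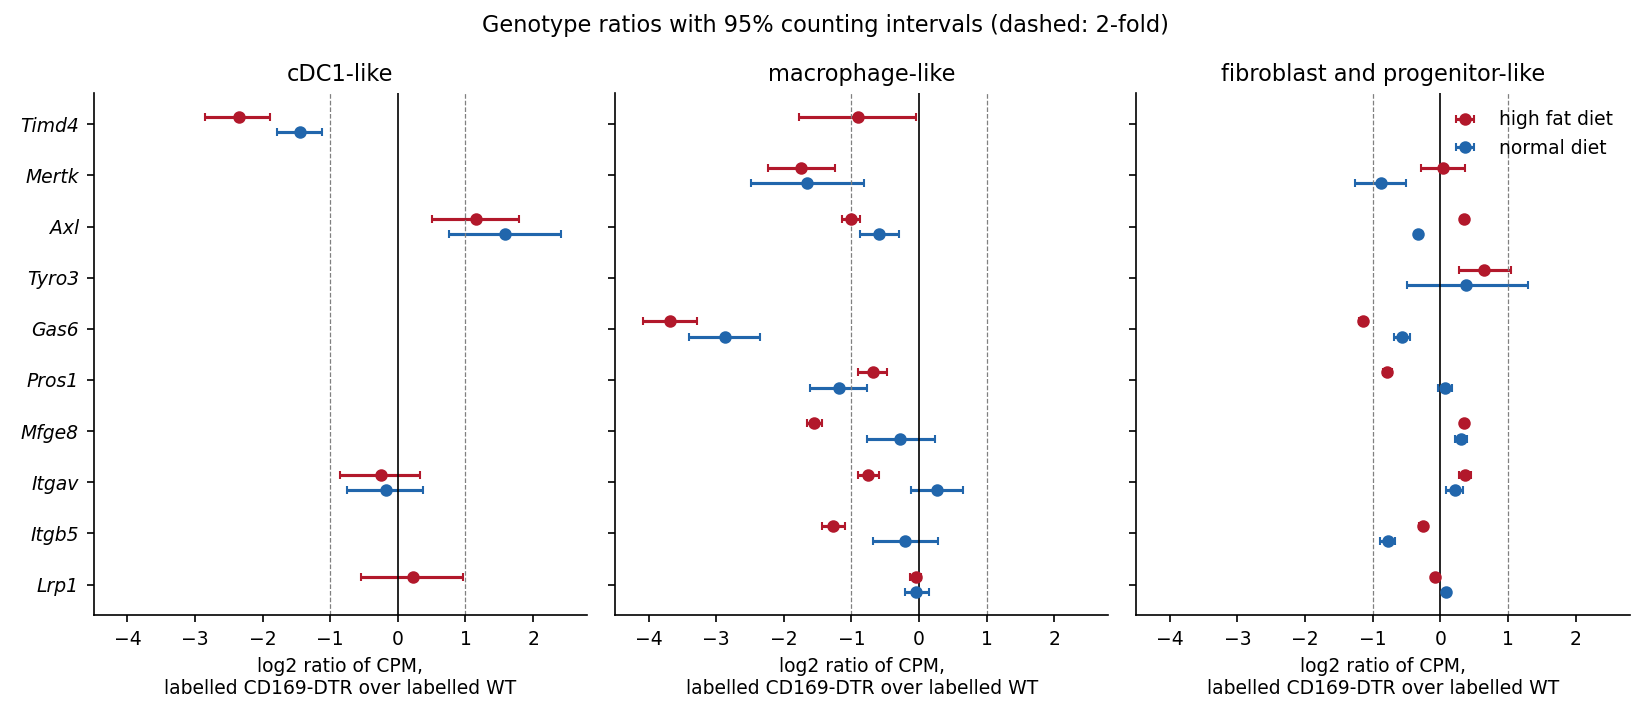
Log2 ratio of CPM, the library labelled CD169-DTR over the one labelled WT, for each gene with at least 50 UMIs in cDC1-like, macrophage-like and fibroblast and progenitor-like cells, with 95% counting intervals. Points left of 0 are lower in CD169-DTR. Gas6 in macrophage-like cells lies farthest to the left in both diets (-3.68 and -2.87), followed by Timd4 in cDC1-like cells on HFD (-2.35) and by Mertk in macrophage-like cells on ND (-1.66).

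The bridge Mfge8 differed by diet in macrophage-like cells of both genotype labels, and by genotype label on HFD. Mfge8 had 85.7 CPM in HFD CD169-DTR and 251 CPM in HFD WT, a ratio of -1.55 (-1.66 to -1.43), and 32.2 CPM in ND CD169-DTR and 39.1 CPM in ND WT, a ratio of -0.28 (-0.77 to 0.23). HFD over ND gave 2.68 (2.27 to 3.13) in the WT libraries, 6.42-fold higher on HFD, and 1.41 (1.15 to 1.68) in the CD169-DTR libraries, 2.67-fold higher. Unthinned, 132 of 750 cells (17.6%) held an Mfge8 UMI in HFD CD169-DTR and 97 of 515 (18.8%) in HFD WT. Thinned to 2000 UMIs, the shares were 2.56% (1.52% to 4.02%) and 7.60% (5.41% to 10.3%). The HFD UMIs thus lay in a minority of cells, and the counting intervals leave out spread between cells. Shared barcodes carried most of the ND CD169-DTR level: 120 of the 137 Mfge8 UMIs of its macrophages lay in them. Without these barcodes Mfge8 had 52.3 CPM in HFD CD169-DTR and 183 CPM in HFD WT, and 8.61 CPM in ND CD169-DTR and 19.3 CPM in ND WT, and the diet ratios were 3.25 in WT and 2.60 in CD169-DTR. T-like cells had 16.4 to 28.5 CPM of Mfge8, so the ND macrophage levels without shared barcodes were within or under that range. The transcript was concentrated in the Mmp12- and Trem2-led cluster, with 81.9 CPM in HFD CD169-DTR and 447 CPM in HFD WT without shared barcodes. That cluster held 282 of 707 macrophage-like cells without shared barcodes in HFD CD169-DTR and 123 of 476 in HFD WT. On ND it held 27 of 198 in ND CD169-DTR and 7 of 112 in ND WT. The part of this make-up in the diet ratios was not tested.

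Itgb5 had 38.9 CPM in HFD CD169-DTR and 93.7 CPM in HFD WT, a ratio of -1.27 (-1.44 to -1.09), and 35.9 CPM in ND CD169-DTR and 41.5 CPM in ND WT, a ratio of -0.21 (-0.68 to 0.28). The HFD ratio of Itgb5 was 0.25 within the Chil3-led cluster alone, and its ND ratio was 0.29 without shared barcodes. Itgav, the alpha chain shared by several integrins, had 65.4 CPM in HFD CD169-DTR and 110 CPM in HFD WT (-0.75, -0.90 to -0.60), and 71.6 CPM in ND CD169-DTR and 59.8 CPM in ND WT (0.26, -0.12 to 0.65). On ND the intervals of Mfge8, Itgb5 and Itgav all spanned 0. Between diets in the CD169-DTR libraries the ratio was 0.12 (-0.15 to 0.39) for Itgb5 and -0.13 (-0.33 to 0.07) for Itgav. Lrp1 was level, with 270 CPM in HFD CD169-DTR, 279 CPM in HFD WT, 286 CPM in ND CD169-DTR and 294 CPM in ND WT. Its ratios were -0.05 (-0.13 to 0.03) on HFD and -0.04 (-0.21 to 0.14) on ND.

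**Figure D4:**
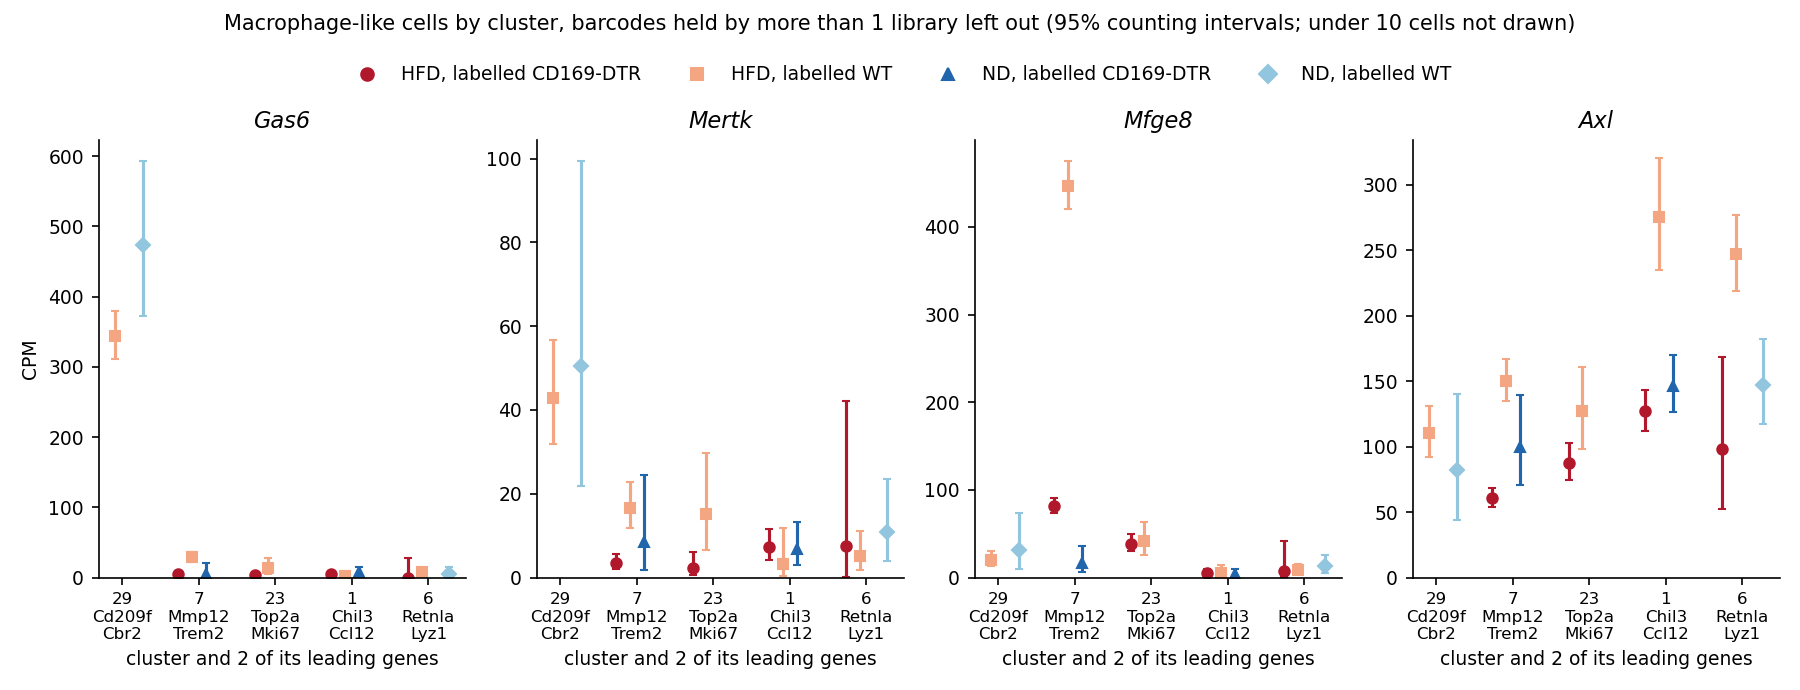
Gas6, Mertk, Mfge8 and Axl (CPM, with 95% counting intervals) in 5 clusters of macrophage-like cells, without barcodes held by more than 1 library. Gas6 is highest in the Cd209f-led cluster, drawn for the WT libraries only because the CD169-DTR libraries had under 10 cells there, and Mfge8 in the Mmp12-led cluster of HFD WT (447 CPM against 81.9 CPM in HFD CD169-DTR).

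Of the 9 members measured in macrophage-like cells on HFD, 5 were past 2-fold and all 5 were lower in HFD CD169-DTR (Mertk, Axl, Gas6, Mfge8 and Itgb5), where 14.4% of 10038 genes were past 2-fold. The members' median log2 ratio was -1.01 against 0.26 for all genes. On ND, 3 of 8 were past 2-fold, all lower in ND CD169-DTR (Mertk, Gas6 and Pros1), where 15.9% of 7643 genes were. The members' median was -0.43 against 0.26, and only 1 passed when cells were typed by cluster. Scaling by trimmed means takes 0.24 on HFD and 0.18 on ND off each macrophage ratio. The same scaling takes off 0.10 on HFD and 0.18 on ND in cDC1-like cells, and 0.29 on HFD and 0.09 on ND in fibroblast and progenitor-like cells.

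Between diets, 2 of 8 members were past 2-fold in WT macrophage-like cells (Mfge8 and Itgb5, both higher on HFD), where 7.85% of genes were. In CD169-DTR macrophage-like cells 3 of 9 were (Mfge8 higher, Timd4 and Gas6 lower on HFD), where 4.29% of genes were. Without shared barcodes that count was 1. Itgb5 in WT cells had a diet ratio of 1.17 (0.76 to 1.62), and Gas6 in CD169-DTR cells one of -1.02 (-1.59 to -0.43). Across all immune cells, 2 of 9 members were past 2-fold on HFD (Timd4 and Gas6, lower in HFD CD169-DTR), where 13.8% of genes were, and 2 of 9 on ND, where 13% were. On ND these were Timd4, lower, and Itgb5, with 22.1 CPM in ND CD169-DTR and 6.01 CPM in ND WT, a ratio of 1.88 (1.56 to 2.20). Macrophage-like cells were 13.6% of immune cells in ND CD169-DTR and 7.32% in ND WT.

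Among 58 other genes of dead cell clearance, some were past 2-fold each way in macrophage-like cells. More of these were lower than higher on HFD, and more were higher than lower on ND. On HFD 50 were measured, with 3 higher and 6 lower past 2-fold and a median of -0.07. Over all genes 11.3% were higher and 3.05% lower past 2-fold, with a median of 0.26. Cd300lf, a phosphatidylserine receptor of myeloid cells, had the highest ratio, with 15.5 CPM in HFD CD169-DTR and 1.49 CPM in HFD WT (3.38, 2.50 to 4.41). The bridge gene Thbs1 (1.31) and the nucleotide receptor gene P2ry2 (1.46) were also higher. Apoe, a lipoprotein gene, had 942 CPM in HFD CD169-DTR and 5373 CPM in HFD WT (-2.51), and the cholesterol exporter gene Abca1 25.3 CPM and 122 CPM in the same libraries (-2.27). The complement bridges C1qa (-1.83), C1qb (-1.09) and C1qc (-1.58) were lower too, but they are markers of the macrophage gate. The scavenger receptor gene Marco had 0 UMIs in HFD CD169-DTR and 63 in HFD WT. On ND 46 were measured, 6 higher and 2 lower, with a median of 0.09. Over all genes 12.4% were higher and 3.55% lower, with a median of 0.26. Cd300lf (2.44), Abcg1 (1.79), Thbs1 (1.43), Msr1 (1.32), Anxa1 (1.31) and Nr1h3 (1.13) were higher in ND CD169-DTR, and Apoe (-2.26) and Rxra (-1.36) lower. In cDC1-like cells 2 of 30 measured were past 2-fold and higher on HFD, where 2.75% of all genes were, and 3 of 27 on ND, where 2.91% were, with Thbs1 among them in both diets.

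Most Gas6 UMIs lay outside the immune cells. Mesothelial-like cells had 448 CPM of Gas6 in HFD CD169-DTR, 1844 CPM in HFD WT, 1902 CPM in ND CD169-DTR and 1594 CPM in ND WT, and 39 of 46, 30 of 30, 77 of 78 and 131 of 134 of these cells held a Gas6 UMI in those libraries. HFD CD169-DTR was the low library. Both HFD libraries had under 50 mesothelial-like cells, so no HFD ratio is given, and the ND ratio was 0.25 (0.17 to 0.34). Most Gas6 UMIs came from both kinds of stromal cell: fibroblast-like cells 88.4% in HFD CD169-DTR, 77.2% in HFD WT, 33.7% in ND CD169-DTR and 27.8% in ND WT, and mesothelial-like cells 6.87%, 12.5%, 59.6% and 60.3% in those libraries. Macrophage-like cells supplied 1.11% in HFD CD169-DTR and 7.44% in HFD WT, and 1.31% in ND CD169-DTR and 2.11% in ND WT. Of 7 members measured in mesothelial-like cells on ND none was past 2-fold, where 4.73% of 6233 genes were. That comparison was also added after levels were seen.

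In fibroblast and progenitor-like cells Gas6 had the ratio farthest from 0 of the measured members on HFD, and Mertk (-0.88, -1.26 to -0.51) on ND. Gas6 had 119 CPM in HFD CD169-DTR and 263 CPM in HFD WT, 2.22-fold lower (-1.15, -1.21 to -1.09), and 83.1 CPM in ND CD169-DTR and 123 CPM in ND WT (-0.57, -0.68 to -0.45). Gas6 was uneven across fibroblast clusters, and the make-up of the gate differed between libraries, as given below. The part of that make-up in the Gas6 ratios was not tested. Of 9 members measured, Gas6 alone was past 2-fold on HFD, where 20% of 12481 genes were, and none on ND, where 9.45% were. Pros1 had 100 CPM in HFD CD169-DTR and 173 CPM in HFD WT (-0.79, -0.85 to -0.72), and 142 CPM in ND CD169-DTR and 135 CPM in ND WT (0.07, -0.03 to 0.17). Mfge8 had 324 CPM in HFD CD169-DTR and 254 CPM in HFD WT (0.35), and 202 CPM in ND CD169-DTR and 163 CPM in ND WT (0.31). The HFD value of Mfge8 lay near the 0.31 median of all genes in that comparison. Itgb5 had 135 CPM in HFD CD169-DTR and 162 CPM in HFD WT (-0.26), and 73.5 CPM in ND CD169-DTR and 127 CPM in ND WT (-0.78, -0.90 to -0.67). Shared barcodes were 6.82% of these cells in ND CD169-DTR and 7.46% in ND WT, and without them the ND ratios were -0.41 for Gas6, 0.15 for Pros1, 0.35 for Mfge8 and -0.68 for Itgb5.

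Between diets, 3 of 9 members were past 2-fold in WT fibroblast-like cells, where 6.93% of genes were: Gas6 (1.10, 1.01 to 1.19) and Tyro3 (1.11, 0.35 to 1.94) were higher on HFD and Mertk (-1.21, -1.57 to -0.84) lower. In CD169-DTR fibroblast-like cells Tyro3 alone was (1.38, 0.85 to 1.95), where 13% of genes were. Tyro3 had 5.89 CPM in HFD CD169-DTR, 3.74 CPM in HFD WT, 2.27 CPM in ND CD169-DTR and 1.74 CPM in ND WT, low in each. Mertk had 5.99 CPM in HFD CD169-DTR and 5.81 CPM in HFD WT, and 7.28 CPM in ND CD169-DTR and 13.4 CPM in ND WT.

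The receptor gene Axl and the ligand gene Gas6 were uneven across fibroblast clusters. A cluster led by Sema3c, Cd55 and Efhd1, which also listed Pi16, a gene of adventitial progenitors in mice, held 125 cells in HFD CD169-DTR, 121 in HFD WT, 98 in ND CD169-DTR and 110 in ND WT. Its Axl level was 891 CPM in HFD CD169-DTR, 859 CPM in HFD WT, 903 CPM in ND CD169-DTR and 1171 CPM in ND WT, and its Gas6 level 25.0, 11.3, 10.8 and 3.31 CPM in those libraries. The cluster was thus high in Axl and low in Gas6 in all 4 libraries. Other clusters held both genes. A cluster led by Hmcn2 and Itgbl1, with 48 cells in HFD CD169-DTR and 744 in HFD WT, had 289 CPM of Axl and 306 CPM of Gas6 in HFD CD169-DTR, and 248 CPM of Axl and 336 CPM of Gas6 in HFD WT. Clusters were built from the same cells, so these levels are descriptions. The make-up of the fibroblast gate differed between libraries: the Inhba-led and Tagln-led clusters held 40.7% and 33.0% of it in HFD CD169-DTR, but 4.59% and 1.85% in HFD WT.

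**Figure D5:**
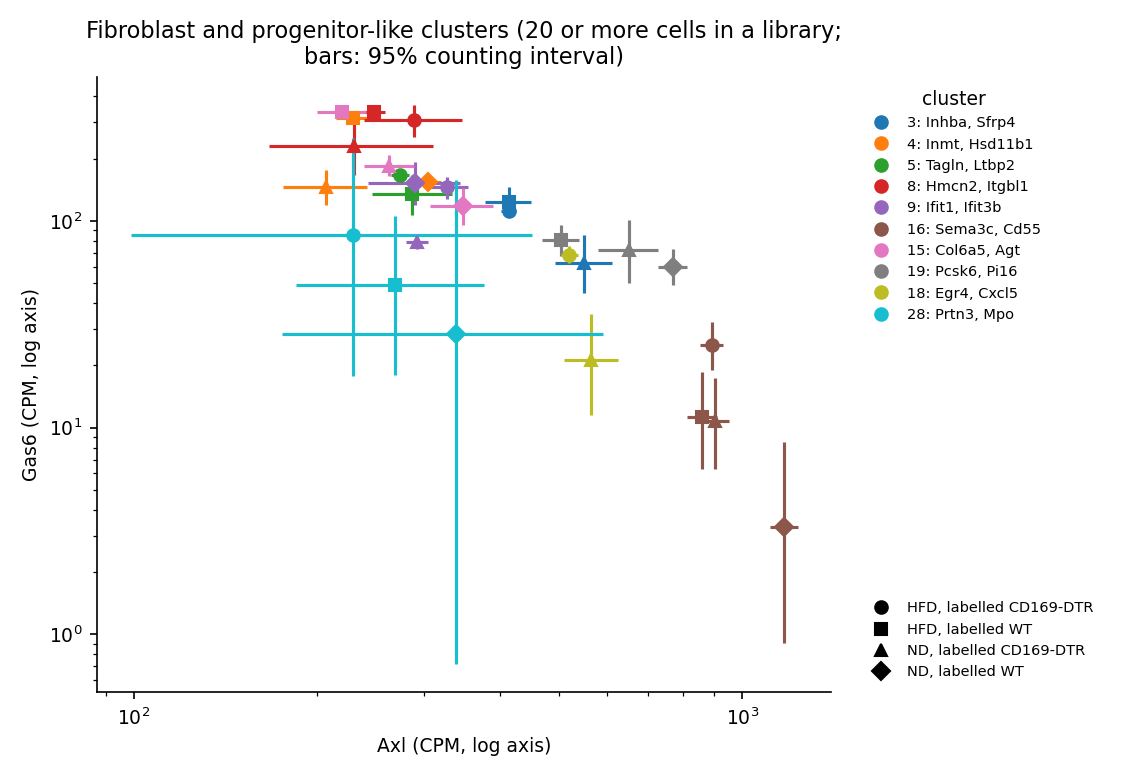
Axl (x axis) against Gas6 (y axis), both CPM on log axes, for each cluster of fibroblast and progenitor-like cells with at least 20 cells in a library, with 95% counting intervals. Colour marks the cluster and shape the library. The Sema3c-led cluster lies at the lower right in all 4 libraries, with 859 to 1171 CPM of Axl and 3.31 to 25.0 CPM of Gas6.

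Vascular endothelial-like cells carried Mertk, at 26.8 CPM in HFD WT, 25.6 CPM in ND CD169-DTR and 30.7 CPM in ND WT, above the macrophage-like cells of the same libraries. HFD CD169-DTR held 15 such cells and is left out. None of 8 members was past 2-fold between genotype labels on ND, where 2.20% of genes were. Between diets in WT, 2 of 7 were, where 3.27% of genes were: Axl had 27.3 CPM in HFD WT and 10.6 CPM in ND WT (1.36, 0.76 to 1.98), and Itgb5 19.2 CPM in HFD WT and 40.5 CPM in ND WT (-1.08, -1.60 to -0.58). Mfge8 was 222 CPM in HFD WT, 204 CPM in ND CD169-DTR and 205 CPM in ND WT in these cells, nearly level. Itgav stood at 359 CPM in HFD CD169-DTR, 314 CPM in HFD WT, 416 CPM in ND CD169-DTR and 399 CPM in ND WT in ILC2-like cells. The other immune types with at least 50 cells had 13.3 to 110 CPM of it.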

How the data were processed

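The deposited data are raw UMI counts per gene and cell barcode, made by the authors with Cell Ranger 3.1.0 on mm10, per the submitters' processing notes, and aggregated over 4 libraries. The barcode suffix gives the library through the order of the deposited aggregation list, the only statement of that order here; the list and the gene and barcode names are the other deposited values. Per the labels, 7000 cells were targeted, with a multiplet rate of 5.4%.

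Barcodes needed 300 or more detected genes, with mitochondrial transcripts making up no more than 10% of their UMIs, and Scrublet doublets (0.690% to 1.37% per library) were removed. Each cell took the type whose mean scaled marker score was at least 0.2 and at least 1.3 times the next; both limits were set after seeing the data, and 6.21% to 9.41% of cells stayed untyped. Clusters (Leiden, resolution 1.5, 2000 variable genes, 30 components, 15 neighbours, seed 1) were an alternative. Counts were summed per type and library as CPM with exact Poisson 95% intervals, and ratios got exact conditional binomial intervals. A ratio needed 50 cells in both libraries and 50 UMIs over both. Past 2-fold means a ratio of at least 2 either way. With 1 library per group nothing was tested, and intervals cover counting error only. The code was checked on simulated data.

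The members and gene lists were chosen with earlier results of these data known. Genes outside the members were named by rank: the 5 nearest by correlation of log2(CPM + 1), and at most 6 clearance genes farthest from 0 per comparison in macrophages, with other genes past 2-fold named after their values were seen. Alternatives were the typing, gate, cell and UMI filters, doublets, shared barcodes, scaling and cell subsets. Python 3.11.15, scanpy 1.11.5, leidenalg 0.10.2, numpy 2.4.6, scipy 1.17.1 and pandas 2.3.3 were used.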

Additional observations from a re-analysis of the deposited data

Results flagged for a closer look

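In fibroblast and progenitor-like cells, 2 genes had genotype ratios of opposite sign in the diets, and the difference between diets was not tested. The log2 ratio of Axl, CD169-DTR over WT, was 0.35 on HFD and -0.33 on ND. That of Lrp1 was -0.08 on HFD and 0.08 on ND. The median over all genes in these comparisons was 0.31 on HFD and 0.10 on ND. With trimmed mean scaling the Axl ratio was 0.06 on HFD and -0.41 on ND, and the Lrp1 ratio was -0.37 on HFD and -0.00 on ND. Without shared barcodes the ND ratio was -0.39 for Axl and 0.17 for Lrp1.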

How the results depend on the processing

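The Timd4 ratios in cDC1-like cells moved beyond their counting interval under none of the 10 alternatives run per diet. In macrophage-like cells the Mertk ratio on HFD was -2.41 with types set by cluster, and that on ND was 0.05 when macrophage-like, monocyte-like and cDC2-like cells were pooled. The Gas6 ratio on HFD was -4.10 without cycling cells, -4.47 with each cell scaled, -1.95 without the Cd209f-led cluster and -2.26 in the Mmp12-led cluster alone. On ND it was -2.10 with the stricter cell filter, -1.36 in the pooled cells and -1.33 without the Cd209f-led cluster. The Itgb5 ratio on HFD was 0.25 in the Chil3-led cluster alone. The cause was not tested for any of these.

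Counts of members past 2-fold were small and moved easily. In cDC1-like cells on HFD (2) the count was 1 by cluster typing, in the largest cluster and at a minimum of 200 UMIs. On ND (2) it was 1 under those and the stricter gate, and 4 at a minimum of 20 UMIs. In macrophage-like cells on ND (3) it was 1 by cluster typing, with the stricter gate and at 200 UMIs. Between diets in CD169-DTR macrophages (3) it was 1 without shared barcodes, without cycling cells and at 200 UMIs, and in WT macrophages (2) it was 1 with the stricter gate or each cell scaled and 5 in the pooled cells. On HFD, trimmed mean scaling gave 2 in fibroblasts (1), as did scaling each cell, and 4 in all immune cells (2). In endothelial-like cells cluster typing gave 1 on ND (0), and between diets (2) cluster typing and 200 UMIs gave 0. Over all ratios, 1004 planned values held 854 within the counting interval, 149 outside it and 1 of opposite sign, and 98 added values, chosen after seeing the data, held 64, 33 and 1.

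Cluster typing left the Chil3-led and Retnla-led macrophage clusters untyped. One library per group, toxin given to every mouse, shared barcodes and Siglec1 levels that run against the labels limit each genotype comparison. No paired analysis was possible because each group had 1 library.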
